A study of Mus musculus with 4 samples.

Results

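The genes of transforming growth factor beta (TGF-beta) signalling described here are the ligand gene Tgfb1, the receptor genes Tgfbr1, Tgfbr2 and Tgfbr3, the Smad genes Smad2, Smad3, Smad4 and Smad7, and the corepressor genes Ski and Skil. They were taken by symbol, and all 10 were found among the 50600 genes listed. The data are 4 RNA-seq libraries of C57BL/6NJ mouse primary T cells, which the labels call biological replicates 1 to 4 of a single group. No treatment, genotype change or control group is labelled, age is given as unknown and sex as not collected, and all 4 libraries carry the same donor identifier. P-values therefore measure only the spread between these samples, which may be technical. The protocol linked to them is one for differentiating CD4+ T cells. Only the headers of the count files carry the terms Th0, activated and 48 hours. The RNA class is uncertain, because total RNA-seq is the labelled assay and polyadenylated RNA is in the name of the library protocol.

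TGF-beta is made as a latent precursor that must be activated outside the cell. The active ligand binds the type II receptor TGFBR2, which recruits and phosphorylates the type I receptor TGFBR1. TGFBR1 phosphorylates SMAD2 and SMAD3 at their carboxyl ends, and these enter the nucleus with the shared partner SMAD4. SMAD7 blocks the receptors, and SKI and SKIL (SnoN) repress SMAD complexes at their target genes. In T cells the pathway restrains proliferation and effector differentiation and is needed for induced regulatory T cells and, with interleukin 6, for Th17 cells.

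The 3 sequences below place these steps. The first is the end of the Smad3 coding sequence, shown because it holds the site on which TGFBR1 acts, and it lies on the minus strand at chr9:63650262-63650291 of GRCm38 (GENCODE M21 transcript). Capitals mark the 3 serine codons of its carboxyl-terminal motif, and the last 3 bases are the stop codon.
Smad3 coding tail: ccgagcatccgctgtTCCAGTgtgTCTtag
The other 2 are the promoter windows of the members with the highest and the lowest mean level per summed exon length, Tgfb1 (chr7:25686752-25687051, plus strand) and Smad3 (chr9:63757945-63758244, minus strand). Each runs from 250 bases before to 50 after the RefSeq start of the gene in GRCm38.p6.
Tgfb1 promoter: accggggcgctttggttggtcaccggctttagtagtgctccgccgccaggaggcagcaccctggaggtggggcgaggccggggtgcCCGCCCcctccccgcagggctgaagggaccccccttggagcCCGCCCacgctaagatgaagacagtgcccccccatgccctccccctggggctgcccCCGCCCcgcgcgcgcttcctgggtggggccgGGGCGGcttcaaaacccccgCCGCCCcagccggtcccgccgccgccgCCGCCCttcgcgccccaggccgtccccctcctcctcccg
Smad3 promoter: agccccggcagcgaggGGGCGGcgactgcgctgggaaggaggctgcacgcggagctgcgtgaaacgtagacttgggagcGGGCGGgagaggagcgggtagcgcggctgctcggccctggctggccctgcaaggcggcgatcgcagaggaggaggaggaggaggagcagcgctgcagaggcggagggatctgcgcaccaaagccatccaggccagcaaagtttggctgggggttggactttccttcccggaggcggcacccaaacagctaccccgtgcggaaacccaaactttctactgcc
Capitals mark the GC box GGGCGG on either strand (CCGCCC on the other), present 6 times in the Tgfb1 window and 2 times in the Smad3 window, and in 35.7% of 32851 RefSeq promoter windows of this length. The Smad-binding letters CAGAC, or GTCTG on the other strand, are absent from both windows and present in 49.6% of all windows. The TATA letters TATAAA, also searched on both strands, were not in either window and occur in 13.6% of all. Among the members, 6 windows of 5 genes were examined, namely Tgfb1, Tgfbr1, Tgfbr2, Smad3 and Ski. Skil and Tgfbr3 had no entry in the promoter table. Smad2, Smad4 and Smad7 were left out when the windows were picked, so the letters were not described for every member. CAGAC occurred once in 1 of the 2 Tgfbr1 windows and once in the Tgfbr2 window, and the Ski window held 6 GC boxes. The libraries measure RNA, so these letters are a description and were not related to the levels.

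The total of counts assigned to genes was between 45110199 (replicate 2) and 127755788 (replicate 3) per library, and replicate 3 was the deepest. All 12 T cell markers lay above 1 CPM (counts-per-million scale), and their summed level was 4644 to 4753 CPM. Markers of other cells were low: the summed level was 3.32 to 5.71 CPM for 8 B cell genes, 4.61 to 6.13 CPM for 12 myeloid genes and 2.65 to 3.22 CPM for 6 natural killer cell genes. It was 0.599 to 1.63 CPM for 7 platelet genes, 8.86 to 10.7 CPM for the CD8 genes Cd8a and Cd8b1, 0.169 to 0.377 CPM for 6 erythroid genes and 28.9 to 32.3 CPM for 8 stromal and endothelial genes, of which Pecam1, a gene that leukocytes also use, made 26.95 CPM ± 1.52 (SD, n = 4). Platelets store TGF-beta, and 5 of the 7 platelet genes, the defining Ppbp and Pf4 among them, had no count in any library, while Itga2b was undecided at 1.22 CPM ± 0.531. Of the myeloid genes 6 of 12, Lyz2 and Fcgr1 among them, had no count, and the macrophage genes Cd68 (2.69 CPM ± 0.316) and Adgre1 (2.6 CPM ± 0.332) lay above 1 CPM. So did Cd8b1 (9.62 CPM ± 0.749), the B cell gene Ebf1 (1.53 CPM ± 0.472) and the natural killer gene Eomes (2.34 CPM ± 0.392). Pecam1 and Pdgfrb of the stromal and endothelial genes also did, whereas Cd8a lay below at 0.279 CPM.

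All 10 members were expressed. Each lay above 1 CPM by limma's one-sided test on log2(CPM + 0.1), with Benjamini-Hochberg adjustment over the 23365 genes with a count. The same call was made for 47.4% of those genes. The largest adjusted p among the members was 6.11e-12 (Tgfbr3) and the smallest 5.3e-18 (Tgfb1). The members had a median of 62.9 CPM, beside 0.902 CPM over all genes with a count and 40.03 CPM over the 11081 genes above the threshold. At a stricter threshold of 10 CPM, Smad3 was the 1 member not called (adjusted p = 0.668). The smallest count behind any member value was the 455 read pairs of Smad3 in replicate 2, for which an exact Poisson 95% interval of counting error is 9.18 to 11.1 CPM.

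Levels of different genes are compared below on the transcripts-per-million (TPM) scale, which divides by gene length, here the summed exon length in the count files. Tgfb1, the ligand gene (ENSMUSG00000002603.15, chromosome 7, 25687002 to 25705077, mm10), was the highest member, with 149, 144, 157 and 159 TPM in replicates 1 to 4 and a mean of 152 TPM ± 7.05 (SD, n = 4). That mean was higher than that of 87.6% of the genes above 1 CPM. Of the RNA of the 3 TGF-beta isoform genes in TPM, Tgfb1 made 99% ± 0.445. Tgfb3 had 40, 103, 203 and 68 counts, or 0.703, 2.28, 1.59 and 1.27 CPM, and passed neither test of 1 CPM (adjusted p = 0.152 for above). Replicate 1 was the lowest library and replicate 2 the highest. Tgfb2 had 7, 0, 8 and 6 counts and lay below 1 CPM (adjusted p = 5.47e-07), as did 48.3% of genes.

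The receptor genes were expressed at unequal levels. Tgfbr2 (ENSMUSG00000032440.13, chromosome 9, 116084293 to 116175360), the type II receptor gene, had 36.3, 39.4, 40.3 and 39.2 TPM and averaged 38.8 TPM ± 1.73 (SD, n = 4). Tgfbr1 (ENSMUSG00000007613.15, chromosome 4, 47353222 to 47414931), the type I receptor gene, had 14.03, 13.2, 12.8 and 13.7 TPM and averaged 13.4 TPM ± 0.571. The 2 sets of values did not overlap, and Tgfbr1 lay below Tgfbr2 in 4 of 4 libraries.
The log2 ratio of Tgfbr1 over Tgfbr2 was -1.52 ± 0.12 (SD), so that Tgfbr2 stood 2.88-fold higher. With 4 libraries the exact two-sided sign-flip permutation test cannot give a p below 0.13, and it gave 0.13 for this and for every pair whose sign was the same in all libraries. The direction was the same under each gene length tried, but the median length of coding transcripts gave a log2 ratio of only -0.55. Tgfbr3, the gene of the coreceptor betaglycan (ENSMUSG00000029287.14, chromosome 5, 107106570 to 107289629), had 8.81, 10.7, 8.46 and 6.99 TPM and averaged 8.73 TPM ± 1.51. It was the lowest of the receptor genes in every library and lay below Tgfbr1 by a log2 ratio of -0.63 ± 0.27. Of its exon length, 4.54% is shared on the same strand with Gm43422, which had at most 2 counts in a library, and no other member shares exon bases with another listed gene.

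**Figure D1:**
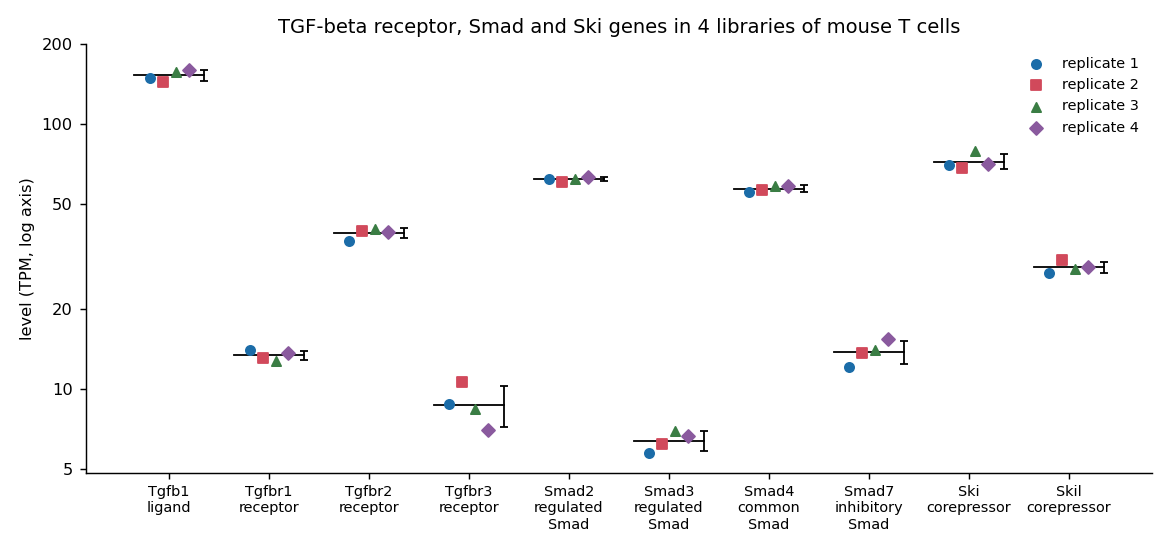
Level of each member in TPM (vertical log axis) in each of the 4 libraries (points, by replicate), with the mean (line) and SD (bar), grouped by role. Tgfb1 lies highest at 144 to 159 TPM and Smad3 lowest at 5.73 to 6.96 TPM, and the points of Tgfbr3 spread most.

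Among the receptor-regulated Smad genes Smad2 exceeded Smad3. Smad2 (ENSMUSG00000024563.15, chromosome 18, 76241580 to 76305731) had 62.2, 60.5, 61.8 and 63.03 TPM and averaged 61.9 TPM ± 1.08 (SD, n = 4). Smad3 (ENSMUSG00000032402.12, chromosome 9, 63646767 to 63757994), whose product binds DNA directly, had 5.73, 6.23, 6.96 and 6.7 TPM and averaged 6.4 TPM ± 0.542. The groups of values were far apart, and Smad3 was the lowest member in mean TPM.
Smad2 made 91.6%, 90.7%, 89.9% and 90.4% of the summed Smad2 and Smad3 TPM. The log2 ratio of Smad2 over Smad3 was 3.26 ± 0.12, a 9.56-fold difference, with Smad2 higher in 4 of 4 libraries. The size depends on the gene length: the log2 ratio was 2.62 without length correction, 1.94 with the longest coding transcript and 1.52 with the median one. Smad2 made 86.1% ± 0.998 of the summed CPM.

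Smad4, the common partner gene (ENSMUSG00000024515.13, chromosome 18, 73639009 to 73703780), was close to Smad2. It had 55.3, 56.3, 58.2 and 58.6 TPM and averaged 57.07 TPM ± 1.58 (SD, n = 4), so that every library of Smad4 lay below every library of Smad2. The log2 ratio of Smad4 over Smad2 was -0.12 ± 0.04. This order depends on the gene length. With the longest coding transcript, held to at most the summed exon length (a setting chosen after seeing the data), the log2 ratio was 0.02. It was 1.2 with the longest coding transcript not so held and -1.16 with the median one. Summed Smad2 and Smad3 stood at 1.2 times the level of Smad4 in TPM (1.23, 1.19, 1.18 and 1.19 in replicates 1 to 4). That ratio also depends on the gene length, and was 1.1 with the held length. With the longest coding transcript not so held, Smad4 (45.5 TPM) exceeded the sum of Smad2 (19.7 TPM) and Smad3 (5.07 TPM). With the median one, Smad2 alone (75.6 TPM) exceeded Smad4 (33.9 TPM). Smad4 exceeded Smad3 by a log2 ratio of 3.14 ± 0.08, and by only 0.37 with the median length of coding transcripts.

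Smad7, the inhibitory Smad gene that TGF-beta signalling itself induces (ENSMUSG00000025880.11, chromosome 18, 75367529 to 75395935), had 12.2, 13.7, 14.1 and 15.5 TPM and averaged 13.9 TPM ± 1.37 (SD, n = 4). Replicate 1 was the lowest and replicate 4 the highest. Smad7 lay above Smad3 (log2 ratio 1.10 ± 0.08) and below Smad2 (-2.16 ± 0.14) in 4 of 4 libraries each. The longest coding transcript gave -0.89 for Smad7 over Smad2. The median length of coding transcripts placed Smad7 below Smad3, at a log2 ratio of -0.33. Smad6, the other inhibitory Smad gene, was nearly absent with 1, 1, 5 and 0 counts, against 918, 814, 2342 and 1090 counts of Smad7. A count of 0 allows a level of up to 0.0562 CPM in replicate 4, taking 3 counts as the limit, for counting error only. Smad2, Smad4 and Smad7 lie within 2.67 Mb of each other on chromosome 18.

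Of the corepressor genes, Ski ranked 2 of the 10 members in mean TPM and Skil 6, below their median of 33.8 TPM. These ranks depend on the gene length. Skil ranked 5 with the longest coding transcript held to the summed exon length, 4 with it not so held and 3 with the median one. Ski ranked 5 with the median one and 2 with the others. In CPM Skil ranked 4, at 81.5 CPM against the members' median of 62.9 CPM. Ski (ENSMUSG00000029050.15, chromosome 4, 155154075 to 155222592) had 70.2, 68.4, 78.8 and 70.8 TPM and averaged 72.06 TPM ± 4.61 (SD, n = 4), the highest level after Tgfb1. Skil (ENSMUSG00000027660.16, chromosome 3, 31095058 to 31122577), whose product SnoN is degraded on TGF-beta signalling and whose gene is then induced, had 27.4, 30.8, 28.4 and 28.9 TPM and averaged 28.9 TPM ± 1.45. The highest Skil value lay below the lowest Ski value.
Ski made 71.4% ± 1.9 of their summed TPM, and the log2 ratio of Skil over Ski was -1.32 ± 0.13. In CPM Ski made 58.9% ± 2.25 and the log2 ratio was -0.52. With the median length of coding transcripts the order turned, to a log2 ratio of 0.38. Ski exceeded Smad3 by a log2 ratio of 3.47 ± 0.09, which the median length lowered to 0.34. Skil exceeded Smad7 by 1.06 ± 0.13, and by 2.16 without length correction.

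From the highest to the lowest mean TPM the order was Tgfb1, Ski, Smad2, Smad4, Tgfbr2, Skil, Smad7, Tgfbr1, Tgfbr3 and Smad3. Of the 9 pairs of neighbours in this order, 2 did not differ beyond their spread, by the rule that the mean log2 ratio be at least 2 SD and have the same sign in every library. Smad7 and Tgfbr1 differed by 0.04 ± 0.17, with Smad7 higher in 3 of 4 libraries (exact sign-flip permutation p = 0.75). Tgfbr3 exceeded Smad3 in 4 of 4 libraries, but by 0.43 ± 0.32.
Ski exceeded Smad2 by 0.22 ± 0.09 and Tgfbr2 exceeded Skil by 0.43 ± 0.06. With the median length of coding transcripts both orders turned, to -1.18 for Ski over Smad2 and -0.81 for Tgfbr2 over Skil, and Tgfbr3 over Smad3 turned to -1.8. Tgfbr2 over Skil also turned with the longest coding transcript, to -0.08. Smad4 exceeded Tgfbr2 by 0.56 ± 0.04 in TPM, but lay below it without length correction (-0.58).

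The gene length matters for these orders because the annotated exons are not all used by 1 transcript. Tgfb1 has a summed exon length of 5042 bases in the count files and 1 protein-coding transcript of 2175 bases in GENCODE M21. TPM also depends on the lengths given to all other genes. With the longest coding transcript of every gene, held to at most the summed exon length, Tgfb1 stood at 253 TPM ± 12.04 (SD, n = 4), 1.66 times the value above. With the median coding length of every gene, which for Tgfb1 is the same 2175 bases, it stood at 158 TPM ± 7.2. It was the highest member under each length tried. Smad2 has 3549 bases in the count files but a coding transcript of 8089 bases in GENCODE M21. Reads from the added bases were not counted, and dividing by the longer length put Smad2 at 19.7 TPM ± 0.334 and below Smad4. The median length of the 4 coding transcripts of Smad3 was 605 bases, against a longest of 5090, and raised its level to 26.3 TPM ± 2.21. Which transcripts the cells used cannot be read from counts per gene.

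**Figure D2:**
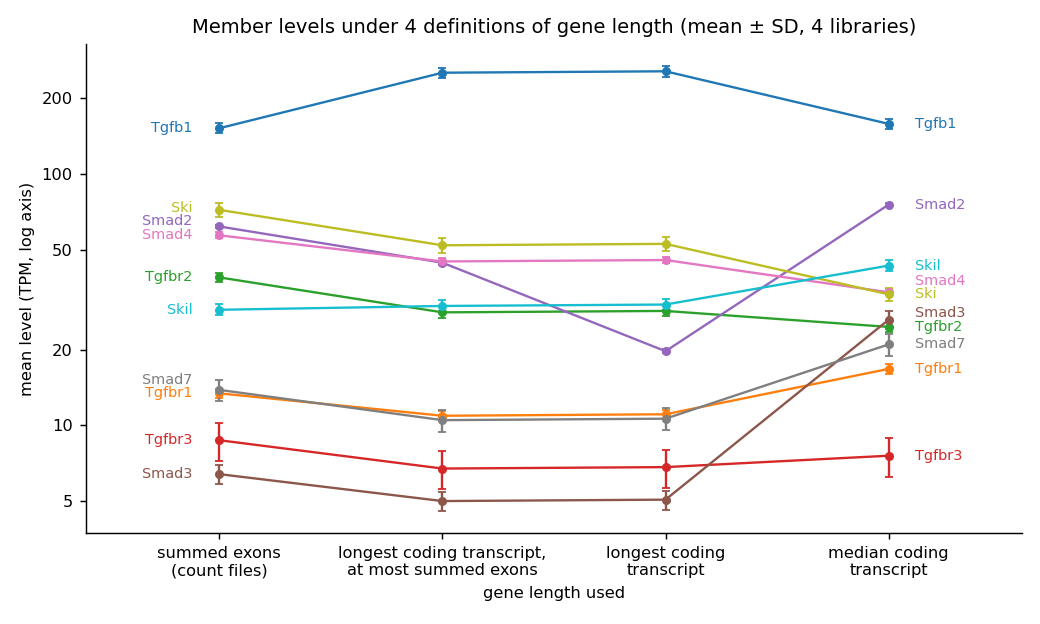
Mean level of each member in TPM (vertical log axis, bars are SD over 4 libraries) under 4 definitions of gene length (horizontal axis). Tgfb1 stays highest throughout, while Smad2 drops to 19.7 TPM with the longest coding transcript and Smad3 rises to 26.3 TPM with the median one.

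Spread between the libraries differed among the members. The coefficient of variation of CPM over the 4 libraries was between 1.95% (Smad2) and 9.63% (Smad7) for 9 members and 17.5% for Tgfbr3, beside a median of 6.22% over the 13279 genes that passed the expression filter. Smad4 had 2.29%, Tgfbr2 3.86%, Tgfb1 4.25%, Tgfbr1 4.96%, Skil 5.13%, Ski 5.57% and Smad3 7.77%. Counting error alone gives about 1.61% for Smad2 and 3.17% for Tgfbr3. All 10 members passed the filter.
No member was called variable by a goodness-of-fit test against edgeR's dispersion trend (0 of 10, beside 0.437% of the genes tested), and 1, Tgfbr3, had an unadjusted p below 0.05, as had 5.75% of genes. DESeq2 marked 0 of 10 members as dispersion outliers, beside 54 of the 13279 genes. Tgfbr3 had 16.9, 20.4, 15.9 and 13.4 CPM, with replicate 2 the highest and replicate 4 the lowest, a 1.53-fold range (unadjusted p = 0.00667, adjusted p = 0.453, edgeR goodness of fit). Of 1436 genes within 0.5 log2 units of its CPM, 98.3% had a lower coefficient of variation. The same share was 81.9% for Ski, 81.1% for Smad7, 70.9% for Skil, 69.4% for Tgfb1 and 50.7% for Tgfbr2, each among genes within 0.5 log2 units of its own CPM. It was 44.03% for Smad3, 39.5% for Tgfbr1 and 13.2% for Smad4.
Smad7 ranged 1.27-fold in CPM, at 16.1, 18.04, 18.3 and 20.4 CPM (unadjusted p = 0.211, edgeR goodness of fit). Smad2 ranged 1.04-fold, at 64.8, 62.7, 63.2 and 65.3 CPM, and 9.12% of the genes of like CPM had a lower coefficient of variation. In bulk RNA fewer cells of a type and less RNA per cell cannot be told apart. Replicate 2, where Tgfbr3 was highest, had the lowest summed T cell (4644 CPM), myeloid (4.61 CPM) and platelet (0.599 CPM) marker levels. The highest T cell sum was 4753 CPM, in replicate 1. Replicate 2 had the highest erythroid (0.377 CPM) and second highest B cell (4.28 CPM) and natural killer (3.17 CPM) sums. Its CD8 and stromal and endothelial sums were neither highest nor lowest. The part of these levels in the spread of Tgfbr3 was not tested.

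**Figure D3:**
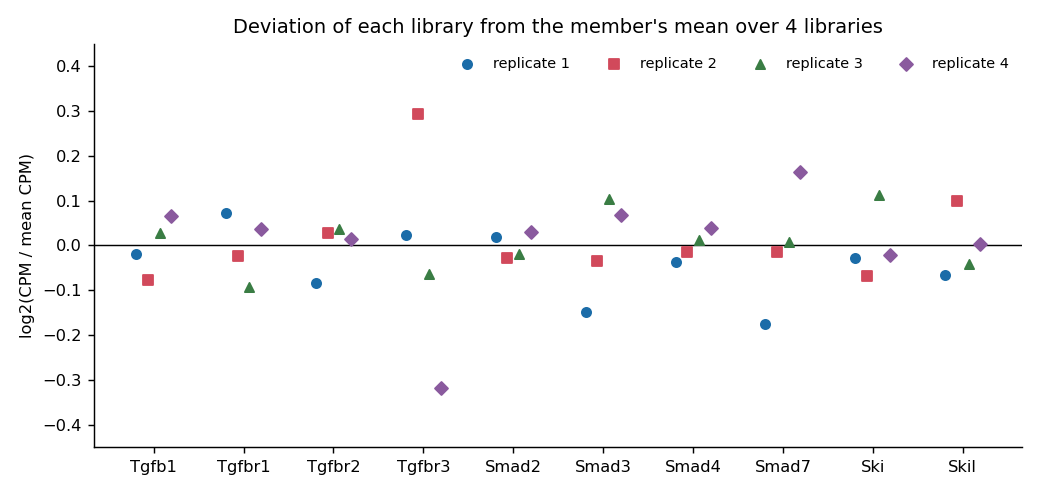
Deviation of each library's CPM from the member's mean over the 4 libraries (vertical axis, log2), by replicate. Tgfbr3 spans the widest range, with replicate 2 highest and replicate 4 lowest, and Smad2 and Smad4 the narrowest.

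**Figure D4:**
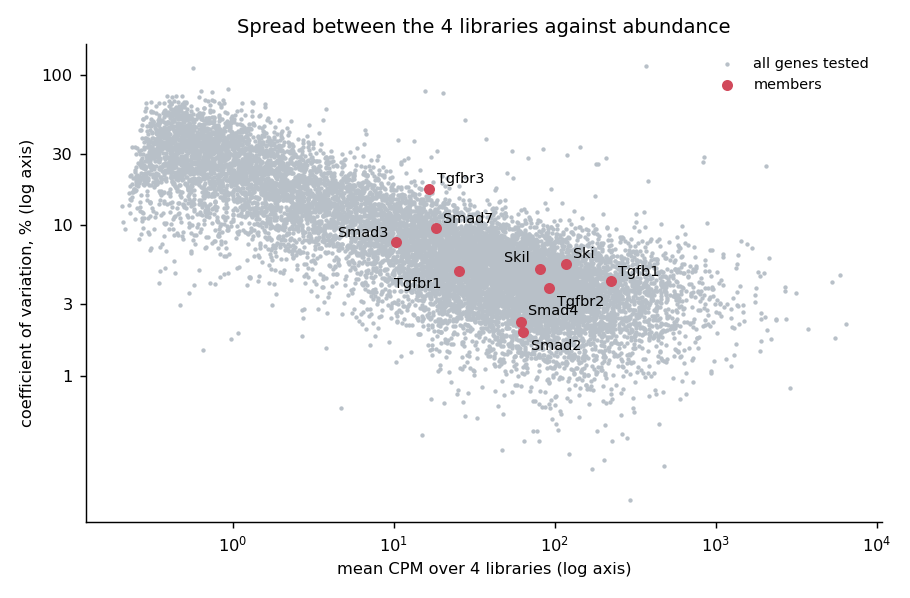
Coefficient of variation between the 4 libraries (vertical log axis, %) against mean CPM (horizontal log axis) for all 13279 genes tested (grey) and the 10 members (red, named). Tgfbr3 lies at the upper edge of genes of its abundance at 17.5%, while Smad2 and Smad4 lie low at 1.95% and 2.29%.

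Of 97 other genes of the pathway, sorted by role, 61 lay above 1 CPM (62.9%, beside 47.4% of all genes tested), 22 lay below and 5 passed neither test, and 9 had no count. The share of 62.9% is of all 97, with the 9 untested genes without a count, whereas 47.4% is of genes with a count only. Genes with a count include noncoding genes and pseudogenes, and no share over protein-coding genes alone was computed, so the shares have unlike bases. The median of the 97 was 5.18 CPM, against 62.9 CPM for the members. The count above 1 CPM lay between 44, at a threshold of 10 CPM, and 64 under the alternatives tried.

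Of 23 other ligands of the family, 6 lay above 1 CPM (26.1%, beside 47.4% of all genes with a count). A further 9 lay below, Tgfb3 was undecided and 7 had no count. The 3 with the highest TPM were Gdf11 at 14.6 CPM ± 1.33, the activin subunit gene Inhba at 5.18 CPM ± 0.598 and Bmp2 at 5.16 CPM ± 0.66 (SD, n = 4).
Of 18 genes of latency and activation, 9 lay above 1 CPM (50%, close to the 47.4% of all genes tested) and 7 below, and Thbs1 and Mmp14 were undecided. Furin, the protease gene whose product cleaves the TGF-beta precursor, reached 314 CPM ± 20.8, and Nrros, which encodes an anchor of latent TGF-beta known from myeloid cells, 70.1 CPM ± 3.1. The integrin gene Itgb1 reached 347 CPM ± 10.6.

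Of the 12 other receptor genes of the family, 8 lay above 1 CPM (66.7%, beside 47.4% of all genes with a count) and 2 below. Acvrl1 was undecided at 1.45 CPM ± 0.567 and Bmpr1b had no count. The activin type I receptor gene Acvr1b stood at 17.9 CPM ± 1.29, the BMP and activin receptor gene Acvr1 at 11.5 CPM ± 0.531 and the coreceptor gene Eng at 8.42 CPM ± 0.597 (SD, n = 4). Smad1 and Smad5, which serve the BMP receptors, stood at 8.69 TPM ± 0.611 and 12.7 TPM ± 0.805. Their sum was 21.3 TPM ± 1.24, against 68.3 TPM ± 1.29 for Smad2 and Smad3. The size of this gap depends on the gene length. The sums were 20.6 against 49.4 TPM with the longest coding transcript held to the summed exon length, and 43.2 against 74.3 CPM without length correction. With the longest coding transcript not so held, Smad2 stood at only 19.7 TPM and Smad3 at 5.07 TPM. With the median one they stood at 75.6 and 26.3 TPM. The sums were not computed for these lengths, so whether the gap holds there is not known. Smad9, the third of the BMP Smad genes, had a single count in replicate 3 and none in the others.

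Most of the listed downstream regulators lay above 1 CPM, as did 47.4% of all genes with a count. All 14 ubiquitin ligase and deubiquitinase genes lay above 1 CPM, with a median of 77 CPM, led in TPM by Stub1 (164 TPM ± 4.57), Uchl5 (106 TPM ± 3.82) and Usp4 (75.9 TPM ± 2.01). Of 21 adaptor, phosphatase and corepressor genes 17 lay above (81%) and 2 below. Dab2 was undecided (0.682 CPM ± 0.194) and Skor2, a relative of Ski, had no count. Strap, whose product binds the receptors with SMAD7, reached 339 TPM ± 14.3, Fkbp1a, whose product holds the type I receptor inactive, 324 TPM ± 2.8 and the deacetylase gene Hdac1 149.5 TPM ± 3.62 (SD, n = 4). All 5 genes of the TAK1 branch lay above 1 CPM, with Map3k7, the TAK1 gene, at 114 TPM ± 2.54, Tab2 at 71.5 TPM ± 3.02 and Tab1 at 47.2 TPM ± 1.09.

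**Figure D5:**
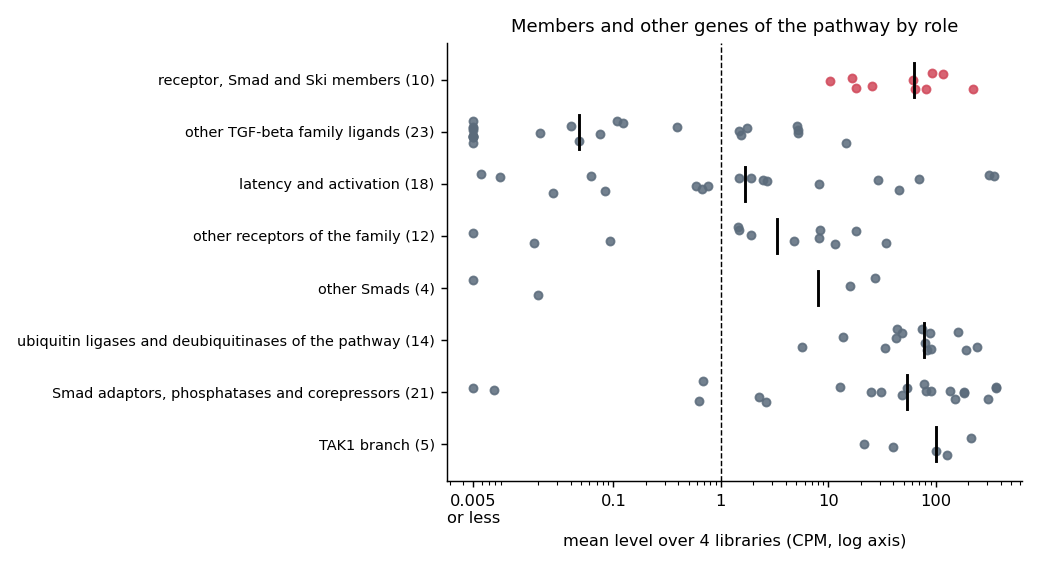
Mean CPM over 4 libraries (horizontal log axis, values of 0.005 or less drawn at the left edge) of the 10 members (red, top) and the other genes of the pathway by role (grey, number of genes in brackets); vertical bars are medians and the dashed line is 1 CPM. The members have a median of 62.9 CPM, and the other ligands 0.0477 CPM.

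Of 19 genes known as TGF-beta targets in some tissue, 13 lay above 1 CPM (68.4%, beside 47.4% of all genes tested), 3 lay below (beside 48.3% of all genes), Foxp3 was undecided and Ccn2 and Tgfbi had no count. Ccn2 and Tgfbi are in the base of the 68.4% but were not tested, whereas the 47.4% is of genes with a count only. This list of 19 genes includes the 3 members Ski, Skil and Smad7, already counted above, and other signals also act on many of its genes. The inhibitor of differentiation gene Id3 reached 825 TPM ± 67.2, the repressor gene Bhlhe40 700.2 TPM ± 29.8 and the cell cycle inhibitor gene Cdkn1a 604 TPM ± 29.2 (SD, n = 4). The 3 genes below 1 CPM were Xcl1 at 0.4 CPM ± 0.135, Cdkn2b at 0.115 CPM ± 0.0971 and Itgae, which encodes the CD103 integrin chain induced by TGF-beta on T cells. Itgae had 22, 18, 31 and 4 counts, or 0.387, 0.399, 0.243 and 0.0749 CPM (adjusted p = 0.000288, limma). No group without TGF-beta signalling is labelled, so none of these levels was related to the pathway's activity.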

How the data were processed

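Per the file headers, the authors counted read pairs per gene with featureCounts 1.4.6-p4 over exons of GENCODE M13, with both ends mapped and strand option 2, and deposited raw counts. The other column used holds each gene's summed exon length in bases, likewise deposited by the authors. Per the labels, reads were mapped to mm10. The headers name STAR, with no version, and whether reads with several matches were counted is not stated there. Symbols from GENCODE M21 matched 50376 of 50600 genes (99.6%).

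CPM (scaled to the library total) and TPM were computed from the counts. Levels were tested with limma 3.58.1 on log2(CPM + 0.1), intercept only, with trend, over 23365 genes. Variability used edgeR 4.0.16 (TMM factors 0.9956 to 1.005) on 13279 genes passing filterByExpr, and DESeq2 1.42.0 was an alternative. Pairs used log2(TPM + 0.1) within each library. Tables were handled in pandas 2.3.3 and numpy 2.4.6 under python 3.11.15, models in R 4.3.3, intervals with scipy 1.17.1 and plots with matplotlib 3.10.9. The tests were tried on simulated counts. Every member and pair gene is named, and the 3 genes per role with the highest TPM, and genes that complete counts of 5 or fewer. Platelet, macrophage and remaining genes were chosen after their values were seen. Members and lists were chosen with earlier results of these data known. Leaving out a library, scaling, filters, pseudocounts, thresholds, depth and gene length were varied.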

Additional observations from a re-analysis of the deposited data

Results flagged for a closer look

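Of 55 values of members, their pairs and other named genes, 3 had 1 library far from the other 3 by the gap between them, about as many as chance gives (1 group in 20). The log2 TPM ratio of Ski over Smad2 was 0.35 in replicate 3 and 0.17 to 0.18 in the others. Bmp2 stood at 4.18 CPM in replicate 4 and at 5.39 to 5.62 CPM in the others. Id3 stood at 379 CPM in replicate 2 and at 445 to 451 CPM in the others.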

How the results depend on the processing

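Each member's call above 1 CPM was recomputed under 14 alternatives and was the same in 139 of 140 cases, the exception being Smad3 at 10 CPM. The count of variable members was 0 under every alternative run. Over all genes it was 58, and 32 to 40 when 1 replicate was left out. Thinning every library to the depth of the smallest left all 10 members above 1 CPM and 0 variable. Of 200 recomputed ratios of 20 gene pairs, 14 turned their direction, all but 1 through the gene length. The log2 ratio of Tgfbr1 over Tgfbr2 was -1.85 without length correction, -1.36 with the longest coding transcript, held to the summed exon length or not, and -0.55 with the median one. In the same order, Smad2 over Smad3 was 2.62, 1.94 (3.13 when held) and 1.52, and 3.09 with a pseudocount of 1. Smad4 over Smad2 was -0.052, 1.2 (0.016 when held) and -1.16. Skil over Ski was -0.52, -0.799 (held or not) and 0.38. With the median length, Smad7 over Smad3 was -0.33, Ski over Smad2 -1.18, Tgfbr2 over Skil -0.81 and Tgfbr3 over Smad3 -1.8. With the longest, held or not, Tgfbr2 over Skil was -0.084 and Smad7 over Tgfbr1 -0.062. Without length correction Smad4 over Tgfbr2 was -0.58 and Smad7 over Tgfbr1 -0.49, and when 1 replicate was left out the last was between -0.00338 (without replicate 4) and 0.121 (without replicate 1). The lengths themselves set these values. The held length was added after seeing the data. No paired analysis was possible because there is only 1 group.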
